A study of Mus musculus with 446 samples.

Results

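The cytochrome P450 genes of families 1 to 3 were followed by diet in liver, skeletal muscle and adipose tissue of male Diversity Outbred mice. Members were the protein-coding genes whose symbol, looked up from the Ensembl gene ID, is Cyp followed by 1, 2 or 3, a letter and a number. They came to 58 of 47643 genes in the liver and muscle tables, and the partial adipose table held 3 of them among its 2728 genes. Diversity Outbred mice descend from several inbred founder strains, and each animal has its own genotype. The mice, housed singly from 6 weeks of age, ate a high-fat diet (HFD, 60 kcal% fat) or stayed on a control diet (10 kcal% fat) for 14 weeks, and no allele or agent other than the diet is named. Each library came from 1 mouse. The study has 75 HFD and 74 control livers, 75 HFD and 74 control muscles, and 75 HFD and 73 control adipose samples.

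Enzymes of these families sit in the membrane of the endoplasmic reticulum, carry a heme group and use electrons from P450 reductase to put an oxygen atom into their substrates. They oxidise drugs and other foreign compounds, steroids, bile acids, vitamin D and fatty acids, and the liver is their main site. Many are driven by ligand-sensing receptors, such as the aryl hydrocarbon receptor for the Cyp1a genes, CAR for Cyp2b genes and PXR for Cyp3a genes. Several mouse members are also known to differ between the sexes and between the central and portal zones of the liver lobule.

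Values are TPM, a length-corrected abundance, so levels may be compared between genes, but the depth of each library is unknown. Libraries were scaled to a common level of protein-coding genes. Log2 fold changes are HFD minus control, taken after adding 1 to the scaled TPM, so that changes of weakly expressed genes are understated. The 2 libraries of mouse 80 (HFD) went against their tissue labels. Its liver library held 117.8 scaled TPM of the hepatocyte gene Alb, against 14660 to 58880 in the other livers, and 15170 of the muscle gene Acta1. Its muscle library held 42270 of Alb. That mouse was left out, which leaves 74 HFD and 74 control mice in liver and muscle. Hepatocyte markers summed to between 26230 and 62440 scaled TPM in HFD livers and between 29800 and 75880 in control livers, with medians of 41440 on HFD and 44650 on the control diet. Of the 6, Alb (-0.20 ± 0.05), Apoa1 (-0.17 ± 0.05) and Ttr (-0.19 ± 0.05) were lower on HFD and Apob (0.09 ± 0.03) was higher (log2 fold changes with SE, adjusted p under 0.05, limma). Their part in the P450 changes was not tested. Kidney markers had a median of 0 in both diets, and skeletal muscle markers summed to medians of 1.498 on HFD and 1.499 on the control diet but reached 5386 in an HFD liver and 2942 in a control liver. In all, 12 HFD and 14 control livers had a low scale factor, down to 0.0103 on HFD and 0.0136 on the control diet. Nuclear protein-coding genes made up as little as 0.410% of the TPM of an HFD liver and 0.608% of a control liver (medians 60.6% and 60.4%). Ribosomal RNA and similar transcripts reached 98.95% and 98.5% (medians 12.5% and 14.2%). Livers of low scale factor hold little coding signal and stay in the ranges, SDs and spread test below. In tissue of mixed cells, fewer cells of a type and less RNA per cell cannot be told apart.

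The 58 genes lie mostly in clusters of copies. Chromosome 19 holds 15 Cyp2c genes, chromosome 15 holds 8 Cyp2d genes, chromosome 4 holds 8 Cyp2j genes, chromosome 5 holds 7 Cyp3a genes beside Cyp2w1, and chromosome 7 holds the 2a and 2b genes beside Cyp2e1, Cyp2f2, Cyp2g1, Cyp2r1, Cyp2s1 and Cyp2t4. Copies of this kind can share reads. In GENCODE M21 transcripts, 60.3% of the 50-base stretches of Cyp2c40 also occurred in another gene, as did 52.8% of those of Cyp2c67, 43.3% of Cyp2c68, 37.0% of Cyp2a5 and 18.3% of Cyp2c50. The share was 3.87% for Cyp2e1 and 0 for Cyp2c70, Cyp2r1, Cyp2f2 and Cyp2c23. How the authors' quantification split such reads is not given in the sources used here, so values of the copies with high shares are uncertain.

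Promoter windows from RefSeq (build GRCm38.p6) were found for 50 of the 58 genes. They are those of the reference build, and the promoter alleles of these outbred mice may differ from them. The windows below give the 150 bases before the annotated start, read 5′ to 3′ along the gene. Cyp2e1 and Cyp2r1 are shown because they are the most abundant member, which was higher on HFD, and a weakly expressed member that was lower. Capitals mark the letters TATAAA.
Cyp2e1, chr7:140763669-140763818, plus strand: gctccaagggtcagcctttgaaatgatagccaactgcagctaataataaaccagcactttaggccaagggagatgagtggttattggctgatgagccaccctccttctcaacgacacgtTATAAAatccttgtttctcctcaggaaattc
Cyp2r1, chr7:114562973-114563122, minus strand: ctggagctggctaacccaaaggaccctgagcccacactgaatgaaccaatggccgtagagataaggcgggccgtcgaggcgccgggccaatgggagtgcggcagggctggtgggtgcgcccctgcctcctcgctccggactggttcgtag
TATAAA stood 31 to 26 bases before the start of Cyp2e1, and these letters are not in the window of Cyp2r1. Searched on both strands of the 250 bases before the start, TATAAA occurred in 23 of the 50 members and in 12.4% of all 32851 promoters in the table.

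The next 6 windows belong to chromosome 19 copies that were lower on HFD, or whose levels varied together or in opposition from mouse to mouse. Capitals mark CAAAGTCCA, the core of the sequence bound by the liver factor HNF4A.
Cyp2c70, chr19:40187287-40187436, minus strand: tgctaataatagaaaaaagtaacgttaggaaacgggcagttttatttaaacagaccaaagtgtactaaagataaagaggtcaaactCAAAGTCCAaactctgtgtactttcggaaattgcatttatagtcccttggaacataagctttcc
Cyp2c67, chr19:39649043-39649192, minus strand: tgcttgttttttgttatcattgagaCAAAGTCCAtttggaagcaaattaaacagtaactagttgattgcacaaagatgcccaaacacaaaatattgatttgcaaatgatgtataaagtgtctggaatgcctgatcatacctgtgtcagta
Cyp2c68, chr19:39741102-39741251, minus strand: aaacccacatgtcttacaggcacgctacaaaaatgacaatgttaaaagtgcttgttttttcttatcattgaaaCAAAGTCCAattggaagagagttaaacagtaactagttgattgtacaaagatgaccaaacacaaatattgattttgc
Cyp2c40, chr19:39812815-39812964, minus strand: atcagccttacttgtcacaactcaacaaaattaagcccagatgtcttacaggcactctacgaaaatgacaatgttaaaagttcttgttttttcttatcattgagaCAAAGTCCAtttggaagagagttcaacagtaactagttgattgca
Cyp2c38, chr19:39463076-39463225, minus strand: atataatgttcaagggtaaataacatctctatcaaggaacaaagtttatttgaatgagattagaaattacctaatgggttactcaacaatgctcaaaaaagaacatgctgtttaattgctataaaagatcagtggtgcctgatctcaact
Cyp2c39, chr19:39347196-39347345, plus strand: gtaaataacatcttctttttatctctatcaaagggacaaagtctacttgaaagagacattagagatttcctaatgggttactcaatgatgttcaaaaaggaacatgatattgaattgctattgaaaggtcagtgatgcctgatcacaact
CAAAGTCCA, on either strand, was found in the 250 bases before the start of 8 of 50 members, namely Cyp2c40, Cyp2c65, Cyp2c67, Cyp2c68, Cyp2c69, Cyp2c70, Cyp3a11 and Cyp3a16. It occurred in 0.384% of all promoters, and the copies share ancestry, so these matches are not independent of each other. The letters of this motif and of TATAAA cannot overlap.

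Cyp2a4 and Cyp2a5 have the most alike promoters among the member pairs compared, with 97.6% identity over the aligned 250-base windows. Capitals mark bases that differ between the 2 windows or have no counterpart in the other one.
Cyp2a4, chr7:26307042-26307191, plus strand: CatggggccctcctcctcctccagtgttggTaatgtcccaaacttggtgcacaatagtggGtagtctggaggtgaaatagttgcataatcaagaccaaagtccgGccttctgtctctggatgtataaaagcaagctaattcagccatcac
Cyp2a5, chr7:26835189-26835338, plus strand: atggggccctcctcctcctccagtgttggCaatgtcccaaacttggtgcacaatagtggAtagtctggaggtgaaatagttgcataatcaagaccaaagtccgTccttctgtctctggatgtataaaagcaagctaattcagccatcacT
In these 150 bases 3 positions differed, and 1 base at an end of each window had no counterpart. For the clock-controlled factors DBP, TEF and HLF, only the exact letters TTACGTAA and TTATGTAA were searched, on both strands. They were in none of the 50 member windows and in 0.931% of all promoters. Variants of this recognition sequence were not searched, so the result does not show that a member lacks a site.

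In liver the 58 genes together made up a median of 7761 scaled TPM on HFD (range 4743 to 11330) and 7336 on the control diet (4862 to 10500). Testing required 1 scaled TPM in at least 52 livers, and 34 of the 58 met this. Of the 24 others, 14 stayed below 1 scaled TPM in every liver. Among the tested, 14 genes had a median of at least 100 scaled TPM, led by Cyp2e1, Cyp2d9, Cyp2c29 and Cyp2f2 in mean level. Cyp2e1 alone made up a median of 32.3% of the summed level of these 58 genes on HFD and 26.4% on the control diet. The inducible genes Cyp1a1 and Cyp2b10 were nearly silent on both diets, with HFD medians of 0.159 and 0.0491 scaled TPM and control medians of 0.0918 and 0.0423.

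By subfamily, 11 of 15 Cyp2c, 7 of 8 Cyp2d, 4 of 7 Cyp3a, 3 of 8 Cyp2j, 3 of 4 Cyp2a, 1 of 5 Cyp2b and 1 of 2 Cyp1a genes were tested, with Cyp2e1, Cyp2f2, Cyp2r1 and Cyp2u1 as single genes. Cyp1b1, Cyp2g1, Cyp2s1, Cyp2t4 and Cyp2w1 were not. The Cyp2c genes summed to a median of 1541 scaled TPM on HFD and 1710 on the control diet, and the Cyp2d genes to 1826 on HFD and 1594 on the control diet. The Cyp3a genes summed to 505 on HFD and 517 on the control diet, the Cyp2a genes to 422 on HFD and 383 on the control diet, and the Cyp2j genes to 270.1 on HFD and 284 on the control diet. These sums are descriptions without a test.

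Some genes below the minimum were abundant in single livers. Cyp2c69 had a median near 0 on HFD and of 0.169 on the control diet, but reached 141.4 scaled TPM in an HFD liver and 94.3 in a control liver. Cyp2b13 had a median of 0 in both diets and reached 83.2 in an HFD liver and 1.27 in a control liver. Cyp2a22 reached 33.5 on HFD and 8.93 on the control diet, and Cyp3a44 reached 2.74 on HFD and 12.5 on the control diet. Cyp2b13, Cyp2c69 and Cyp3a44 are in the female-biased list, and all these mice were male.

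**Figure D1:**
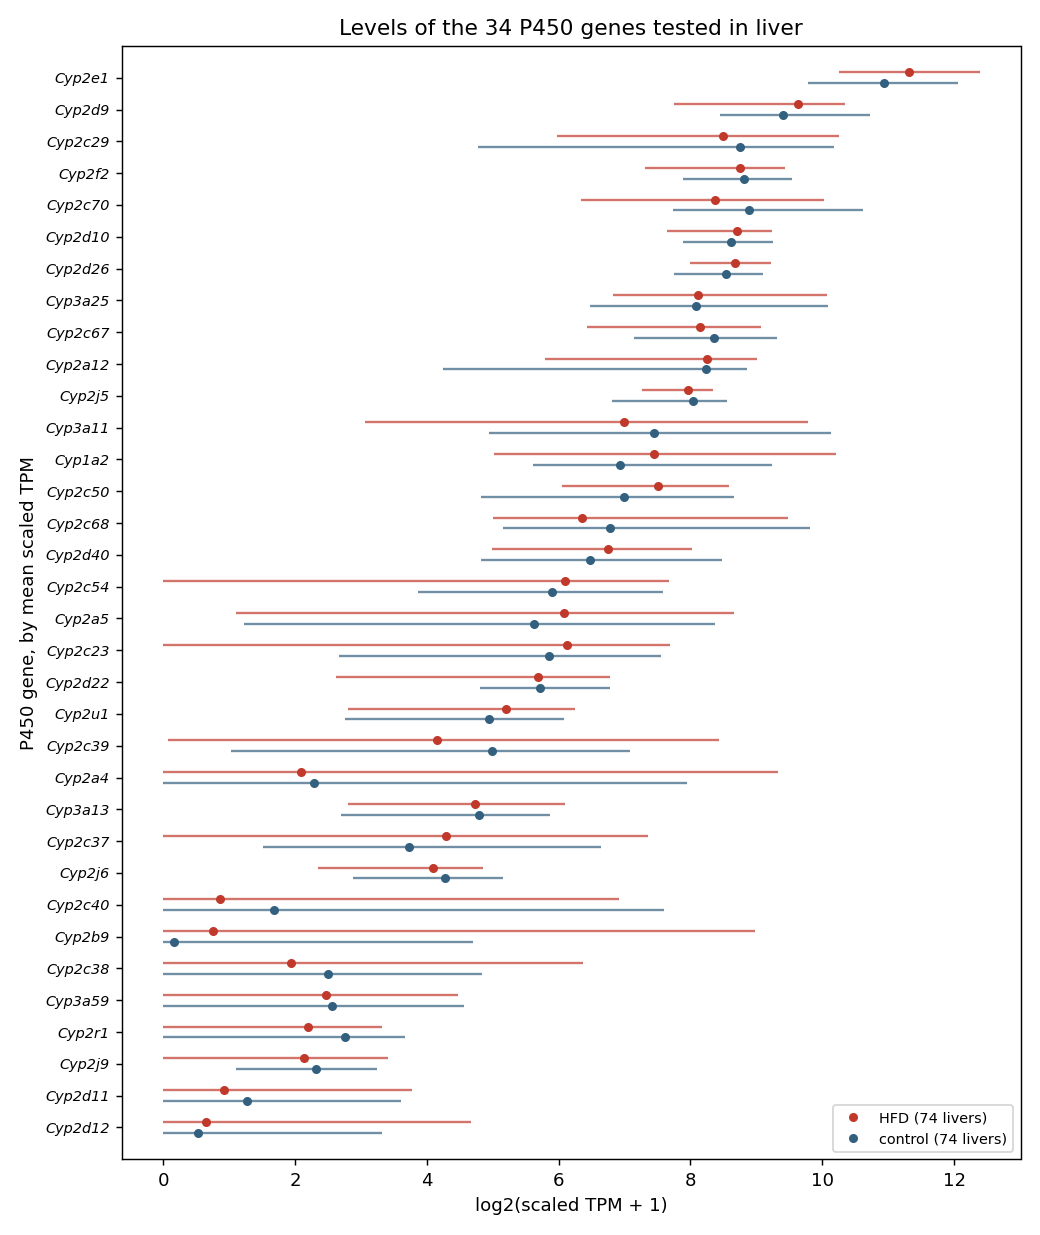
Levels of the 34 P450 genes tested in liver, on the log2(scaled TPM + 1) scale, in order of mean scaled TPM from top to bottom. Points are medians and lines run from the lowest to the highest liver, for 74 HFD livers (red, upper) and 74 control livers (blue, lower), and the lines of the 2 diets overlap for every gene.

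The first comparison asked which P450 genes differed by diet in liver. The ethanol-oxidising Cyp2e1, the fatty acid epoxygenase Cyp2c50, Cyp2d26 and Cyp2b9 were higher on HFD. Cyp2c70, which makes the muricholic acids of mouse bile, Cyp2r1, a vitamin D hydroxylase, and Cyp2c67 were lower. Thus 4 members rose and 3 fell of 34 tested, at an adjusted p under 0.05 (limma, two-sided, Benjamini-Hochberg over all genes tested). Among the 4, Cyp2b9 entered the test mainly through its HFD livers, where it is high, and without it 3 members rose and 3 fell. Over all 12296 genes tested 9.89% passed, 4.72% as higher and 5.17% as lower. At an unadjusted p under 0.05 there were 14 of the 34 members, against 21.2% of all genes. The 34 members had a median log2 fold change of -0.05, against -0.0030 over all genes. With libraries scaled to the sum of coding genes 3 members rose and 4 fell, and of all genes that passed 21.1% were higher (47.7% in the reported fit), and with TPM as deposited 0 members passed.

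**Figure D2:**
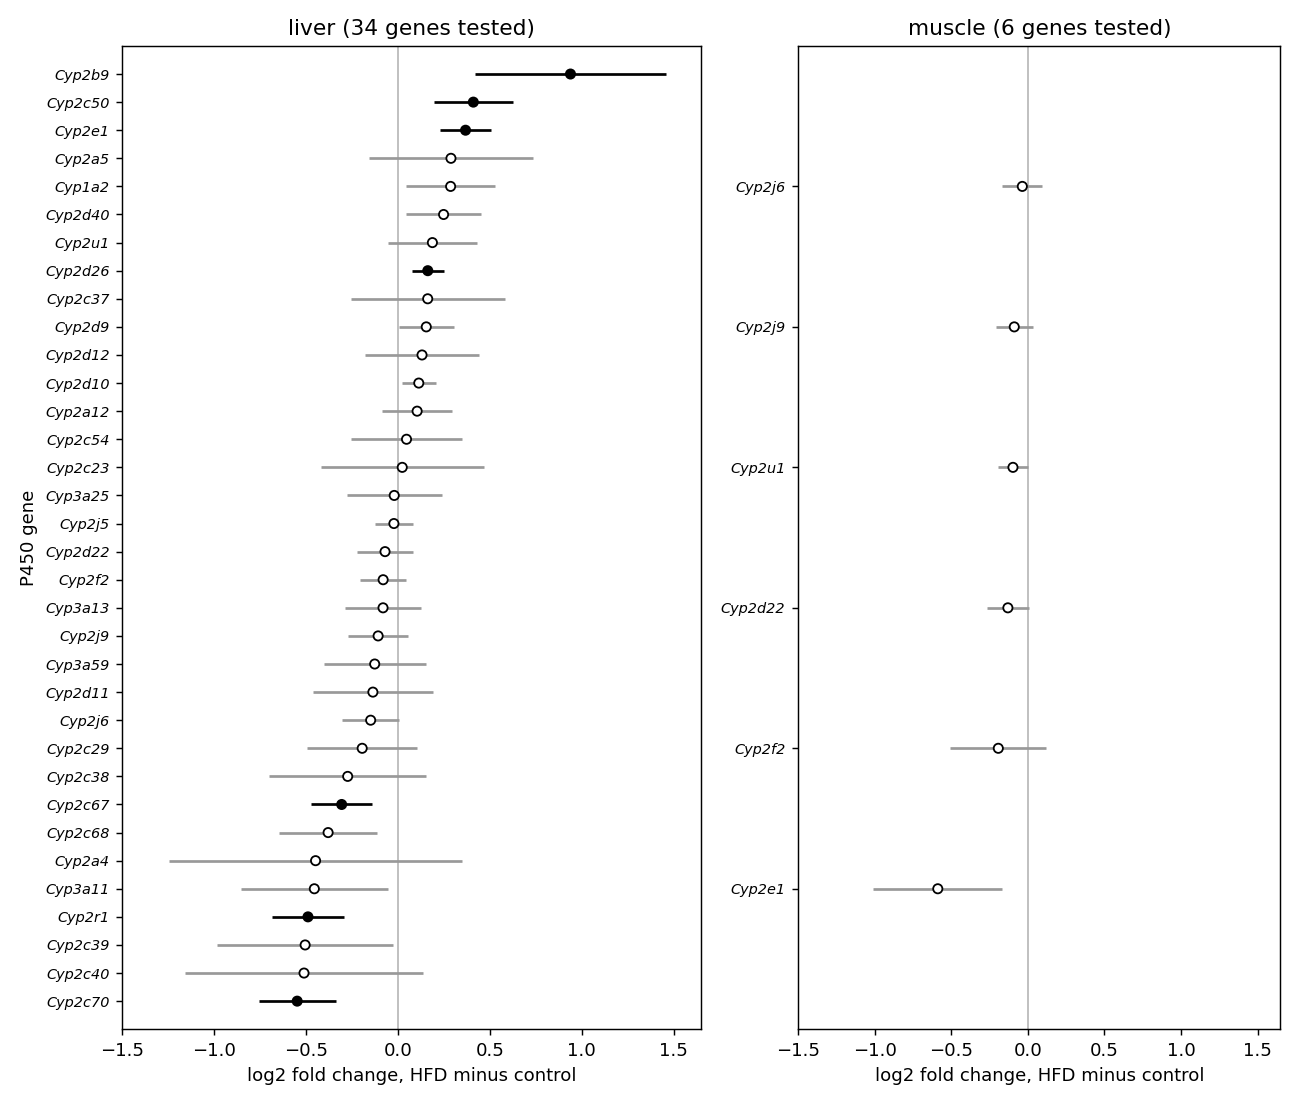
Log2 fold changes (HFD minus control, horizontal axis) of the 34 members tested in liver (left) and the 6 tested in muscle (right), with 95% intervals as lines. Filled points passed the adjusted threshold of 0.05, which 4 members did above 0 and 3 below 0 in liver and none did in muscle.

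Cyp2e1 (ENSMUSG00000025479) ran from 1226 to 5363 scaled TPM in HFD livers, with a median of 2559, and from 882 to 4266 in control livers, with a median of 1963. The diets overlapped widely, and 58 of 74 HFD livers lay above the control median. Means were 2583 ± 720.5 scaled TPM on HFD and 2025 ± 668 on the control diet (SD, n = 74 each). The log2 fold change was 0.37 ± 0.07 (SE), a fold of 1.29 (adjusted p = 4.18e-05, limma). Cyp2e1 is best known as an enzyme of the cells around the central vein. With mouse 80 in the fit its change was 0.27 (adjusted p = 0.166), and the liver library of that mouse held 15.4 scaled TPM.

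Of 9 pericentral markers other than P450 genes, 6 were higher and none lower on HFD. Over all genes tested in liver 4.72% were higher and 5.17% lower. The 9 markers had a median log2 fold change of 0.32. They summed to a median of 875 scaled TPM on HFD (455 to 1668) and 662 on the control diet (357 to 1347). The secreted factor Lect2 had 0.47 ± 0.06, Gulo, an enzyme of vitamin C synthesis, 0.32 ± 0.06, the ornithine aminotransferase Oat 0.63 ± 0.11, and the glutamate transporter Slc1a2 0.48 ± 0.10. Glul (0.14 ± 0.07), Lgr5 (0.08 ± 0.08) and Axin2 (-0.10 ± 0.08) of the same list did not pass (adjusted p = 0.249, 0.653 and 0.536, limma). With the sum of coding genes as scale 4 of the 9 were higher. Of 8 periportal markers 3 were lower, namely Hal (-0.27 ± 0.07) and the urea cycle genes Cps1 (-0.22 ± 0.05) and Ass1 (-0.19 ± 0.07). Higher was 1, Pck1 of gluconeogenesis (0.40 ± 0.10). Arg1, also of the urea cycle, Sds and Gls2 did not pass (adjusted p = 0.063, 0.576 and 0.321, limma). The 8 periportal markers summed to a median of 3928 scaled TPM on HFD (2575 to 5412) and 4218 on the control diet (1938 to 6494). The part of zonation in the P450 changes was not tested.

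Cyp2c50 (ENSMUSG00000054827) ran from 65.04 to 384 scaled TPM in HFD livers, with a median of 181, and from 27.3 to 403 in control livers, with a median of 126.4. In all, 54 of 74 HFD livers exceeded the control median, a log2 fold change of 0.41 ± 0.11 (adjusted p = 0.00569, limma). With mouse 80 in the fit the adjusted p was 0.170. The related Cyp2c37, Cyp2c54 and Cyp2c29 had 0.16 ± 0.21, 0.05 ± 0.15 and -0.19 ± 0.15 and did not pass.

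Cyp2d26 (ENSMUSG00000022445) showed the smallest change that passed. It ran from 255 to 594 scaled TPM in HFD livers, with a median of 409, and from 214 to 548 in control livers, with a median of 371, and 54 of 74 HFD livers exceeded the control median. The change was 0.16 ± 0.04 (adjusted p = 0.00691, limma). It was 0.11 with libraries scaled to the sum of coding genes (adjusted p = 0.0992) and 0.06 with mouse 80 (adjusted p = 0.831). Among the other 2d genes, Cyp2d9, a male-biased testosterone hydroxylase and the second most abundant member, had 0.15 ± 0.08 (adjusted p = 0.215), and Cyp2d10 had 0.11 ± 0.05 (adjusted p = 0.118).

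Cyp2b9 (ENSMUSG00000040660), a female-biased gene in mice, was near 0 in most of these male livers. Its HFD values ran from 0 to 504 scaled TPM with a median of 0.696, and its control values from 0 to 25.1 with a median of 0.126. It reached 1 scaled TPM in 34 of 74 HFD and 18 of 74 control livers, 52 in all, which is the fewest the expression minimum allows, so its entry into the test rested mainly on the HFD group. Its log2 fold change was 0.94 ± 0.26 (adjusted p = 0.00982, limma). The highest value belongs to mouse 83, and the next highest HFD liver held 73.9 scaled TPM. Cyp2b9 was under the minimum with TPM as deposited and without mouse 83. It was also under it without the libraries whose label carries a second number, and without the mice not matched between tissues. Without mouse 83 and with no minimum it had 0.84 (adjusted p = 0.0374).

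Cyp2c70 (ENSMUSG00000060613) was lower on HFD. It ran from 79.97 to 1040 scaled TPM in HFD livers, with a median of 330, and from 211 to 1564 in control livers, with a median of 474. Only 16 of 74 HFD livers exceeded the control median, and 14 HFD livers lay below the lowest control liver. The log2 fold change was -0.55 ± 0.11, a fold of 0.684 (adjusted p = 5.33e-05, limma). Means were 369.8 ± 192 scaled TPM on HFD and 506 ± 200.5 on the control diet (SD, n = 74 each). It shares no 50-base stretch with another gene. Cyp2c67 (ENSMUSG00000062624) ran from 85.7 to 539 in HFD livers, with a median of 283, and from 140.8 to 636 in control livers, with a median of 327, a log2 fold change of -0.31 ± 0.08 (adjusted p = 0.00779). Cyp2c68 had -0.38 ± 0.14 and missed the threshold (adjusted p = 0.0576), but passed in 4 of the alternatives.

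Cyp2r1 (ENSMUSG00000030670) ran from 0 to 8.96 scaled TPM in HFD livers, with a median of 3.59, and from 0 to 11.7 in control livers, with a median of 5.80. The levels are low, and 12 of 74 HFD livers exceeded the control median. Means were 3.96 ± 1.89 scaled TPM on HFD and 5.81 ± 2.23 on the control diet (SD, n = 74 each). On the log2 scale this was a change of -0.49 ± 0.10 (adjusted p = 0.000119, limma).

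**Figure D3:**
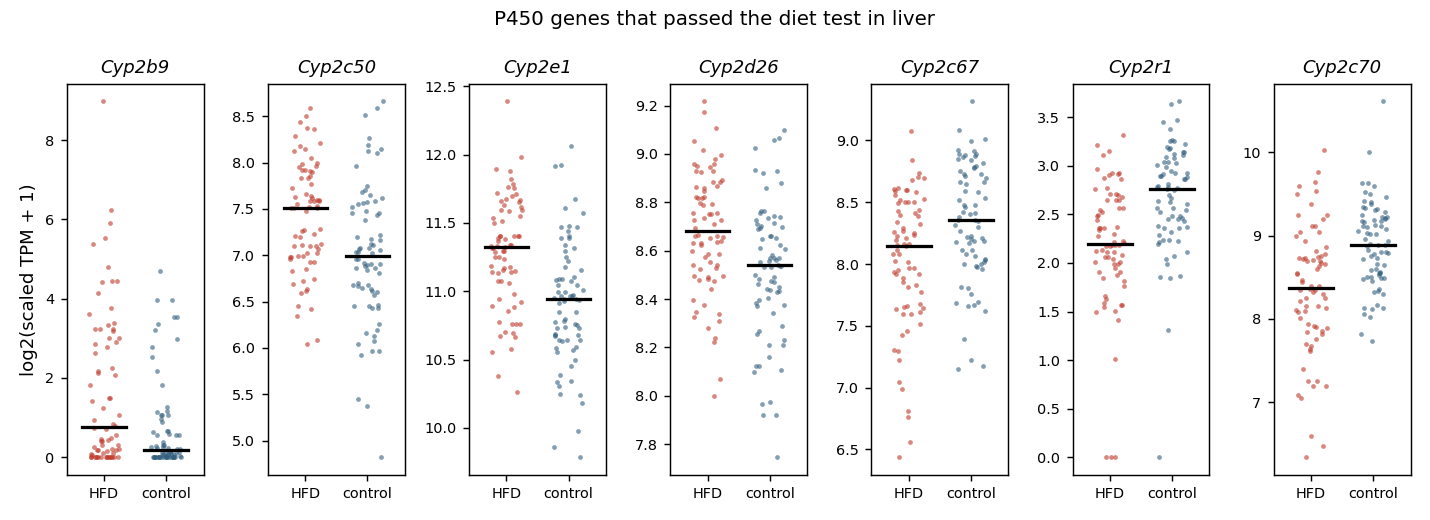
Log2(scaled TPM + 1) of the 7 members that passed the diet test in liver, 1 point per mouse, with HFD (red) left and control (blue) right in each panel and the median as a black bar. Each panel has its own vertical axis that need not start at 0. The diets overlap in every panel, and the single highest Cyp2b9 point is mouse 83.

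The most abundant members of the other subfamilies did not pass. Cyp1a2, an aryl hydrocarbon receptor target that oxidises caffeine, ran from 31.4 to 1188 scaled TPM in HFD livers, with a median of 173, and from 48.1 to 605 in control livers, with a median of 121.6. Although 60 of 74 HFD livers exceeded the control median, its log2 fold change of 0.29 ± 0.12 had an adjusted p of 0.135 (limma). The PXR target Cyp3a11, the main drug oxidase of its family in mouse liver, ran from 7.40 to 876 in HFD livers, with a median of 125.8, and from 29.9 to 1120 in control livers, with a median of 173 (-0.45 ± 0.20, adjusted p = 0.165). These intervals, 0.05 to 0.53 for Cyp1a2 and -0.86 to -0.05 for Cyp3a11, leave room for changes as large as those that passed. For the periportal Cyp2f2, known for oxidising naphthalene, the value was -0.08 ± 0.06, for the epoxygenase Cyp2j5 -0.02 ± 0.05, for Cyp3a25 -0.02 ± 0.13, for Cyp2c29 -0.19 ± 0.15 and for Cyp2a12 0.10 ± 0.10. Cyp2a5, the coumarin hydroxylase, had 0.29 ± 0.23, Cyp2u1, a fatty acid hydroxylase, 0.19 ± 0.12, and Cyp2j6 -0.15 ± 0.08. Cyp2c39 had -0.50 ± 0.25, Cyp2c38 -0.27 ± 0.22 and Cyp2d40 0.25 ± 0.10. The others not yet named (Cyp2c23, Cyp2d11, Cyp2d12, Cyp2d22, Cyp3a13 and Cyp3a59) lay between -0.14 and 0.13.

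Genes that serve or steer the P450 enzymes were described from lists. For comparison, 4.72% of all genes tested in liver were higher on HFD and 5.17% were lower. Of 18 partners and heme synthesis genes 6 were higher and 3 lower on HFD (3 and 5 with libraries scaled to the sum of coding genes), with a median log2 fold change of 0.08. Alas1, which sets the rate of heme synthesis, had a median of 135.2 scaled TPM on HFD and 59.2 on the control diet (0.99 ± 0.18, adjusted p = 8.85e-06, limma). The epoxide hydrolase Ephx2 rose by 0.45 ± 0.08, and the electron donors Cyb5r3 and Cyb5b changed by -0.46 ± 0.05 and -0.30 ± 0.05. P450 reductase, Por, named after its value was seen, had a median of 29.6 scaled TPM on HFD and 19.4 on the control diet (0.50 ± 0.15, adjusted p = 0.0137).

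Of 20 tested regulators of P450 genes 7 were higher and 1 lower (4.72% and 5.17% of all genes tested in liver), with a median log2 fold change of 0.07. The clock-output factors Tef and Dbp had 0.67 ± 0.12 and 1.18 ± 0.27, Nr1i3, which encodes CAR, had 0.52 ± 0.11, and the partner receptor Rxra had 0.19 ± 0.04. Nr1i2, which encodes PXR, had 0.08 ± 0.07 (adjusted p = 0.530) and Ahr 0.19 ± 0.08 (adjusted p = 0.137). Of 10 tested targets of CAR and PXR outside the P450 families 3 were higher and 4 lower. The carboxylesterase Ces2a had -0.56 ± 0.09, the transporters Slco1a4 and Abcc3 -0.63 ± 0.15 and 0.47 ± 0.10, and the glutathione transferase Gstm1 -0.33 ± 0.08. The named genes of these lists kept their sign under both other scalings.

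Beyond diet, some members varied widely between livers of the same diet, those of low scale factor included. The 5 tested members with the largest SD within diet, on the log2(scaled TPM + 1) scale, were Cyp2a4 (2.48), Cyp2c40 (2.02), Cyp2b9 (1.62), Cyp2c39 (1.497) and Cyp2a5 (1.39). Cyp2d26 had 0.268 and Cyp2d10 0.284. The testosterone hydroxylase Cyp2a4 ran from 0 to 645 scaled TPM in HFD livers, with a median of 3.27, and from 0 to 245 in control livers, with a median of 3.91. Cyp2c40, a female-biased gene, had medians of 0.825 on HFD and 2.20 on the control diet and reached 119.2 on HFD and 192.2 on the control diet. Neither passed by diet (-0.45 ± 0.41 and -0.51 ± 0.33, adjusted p = 0.595 and 0.395, limma). Of the 9 genes in the female-biased list 3 were tested, and of these only Cyp2b9 passed, having entered mainly through its HFD livers. Neither gene of the male-biased list, Cyp2d9 and Cyp2u1, passed.

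The design text gives variability among mice as a purpose, so the spread itself was compared by diet. Of 30 members averaging 5 scaled TPM or more, none passed when each liver's absolute distance from its diet's median was fitted with limma, where 2 of 7328 genes (0.0273%) did. At an unadjusted p under 0.05 there were 4 of the 30 members, against 3.14% of all genes. One of them was Cyp2b9, whose mean was 13.2 scaled TPM on HFD and 1.78 on the control diet. It reached the level needed for this test only through mouse 83, so a wider spread on HFD was built into its entry and no p is given. Cyp2b9 counts in both the 4 and the 30, so their share is no like comparison with that of all genes. Apart from it, the 4 hold Cyp2c70, Cyp2j5 and Cyp2d9. The mean distance of Cyp2b9 on the log2 scale was 1.51 on HFD and 0.714 on the control diet. Cyp2c70 deviated by 0.601 on HFD and 0.407 on the control diet, Cyp2j5 by 0.196 on HFD and 0.293 on the control diet, and Cyp2d9 by 0.292 on HFD and 0.419 on the control diet.

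Members were then compared with each other across all 74 HFD and 74 control livers after removal of the diet means, over all 561 pairs of tested members, a family chosen after seeing the data. A pair passed where both Pearson's r and Spearman's rho had an adjusted permutation p under 0.05 (100000 permutations within diet, two-sided). Of 88 pairs within a subfamily 38 passed as positive and 4 as negative, with a median r of 0.178. Of the 473 other pairs 68 passed as positive and 9 as negative, with a median r of 0.0550. Cyp2c38 and Cyp2c39 were the closest pair (r = 0.81, rho = 0.84), and their upstream windows are 75.8% identical. Cyp2c40 and Cyp2c68 followed (r = 0.80, rho = 0.69, 73.1% identical), and 35.6% of the 50-base stretches of Cyp2c68 also occur in Cyp2c40. The part of shared reads in these values was not tested. Cyp2j5 and Cyp2j6, which share almost none (0.174% of the stretches of Cyp2j5 occur in any other gene), had r = 0.71 and rho = 0.69, with windows that are only 42.6% identical. Each of these 3 pairs had the smallest p that the permutations can give (adjusted p = 0.000134 for r), and r stayed at 0.79, 0.79 and 0.71 without the 2 livers farthest from the median of the first gene. For comparison, windows of members from different subfamilies were 39.3% to 50.7% identical, a range that holds the value of Cyp2j5 and Cyp2j6.

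Like promoters did not always go with like levels. Cyp2a4 and Cyp2a5 had r = 0.25 and rho = 0.24 (adjusted p = 0.00276 and 0.00467), and r was again 0.25 without the 2 livers farthest in Cyp2a5. Cyp3a25 and Cyp3a59, with windows 95.6% identical, had r = 0.20 (adjusted p = 0.0581 over the 561 pairs). Cyp2c67 and Cyp2c68, whose windows both hold CAAAGTCCA, had r = -0.17 and rho = 0.06 (adjusted p = 0.118 and 0.624).

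**Figure D4:**
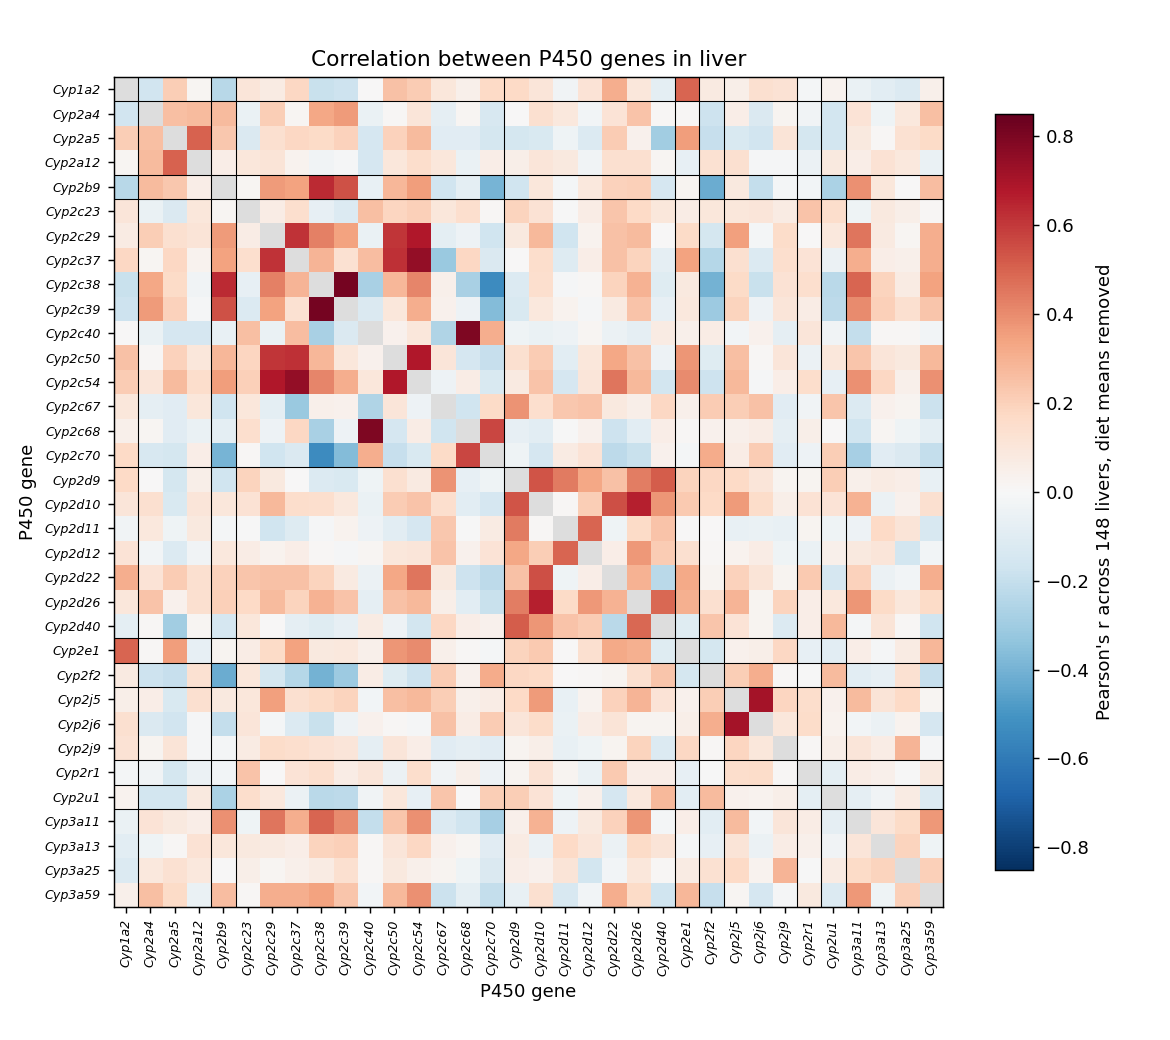
Pearson's r between each pair of the 34 members tested in liver, over 74 HFD and 74 control livers with diet means removed, with genes in order of subfamily and black lines between subfamilies. Blocks of positive values (red) stand among Cyp2c29, Cyp2c37, Cyp2c50 and Cyp2c54 and between Cyp2d10 and both Cyp2d9 and Cyp2d26, and Cyp2c70 and Cyp2f2 show negative values (blue) with Cyp2c38.

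Opposed pairs centred on Cyp2c38, Cyp2b9, Cyp2c70 and Cyp2f2. Cyp2c38 and Cyp2c70 had r = -0.54 and rho = -0.47, Cyp2b9 and Cyp2f2 r = -0.42 and rho = -0.30, and Cyp2b9 and Cyp2c70 r = -0.40 and rho = -0.32 (adjusted p for r = 0.000134, 0.000134 and 0.000249). Within diet the first pair had -0.59 in HFD livers and -0.44 in control livers. Without the 2 livers farthest in Cyp2c38 it had -0.51. Cyp2b9 in turn went with Cyp2c38 (r = 0.64, rho = 0.55), a gene on another chromosome. Mouse 83 held the highest value of both. Without the 2 livers farthest in Cyp2b9, mouse 83 among them, r was 0.59 with Cyp2c38, -0.40 with Cyp2f2 and -0.39 with Cyp2c70.

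Of 12 relations listed for the P450 genes and their regulators, zone markers or copies, 6 could be computed, because Cyp1a1, Cyp2b10 and Cyp2c55 were below the expression minimum. Cyp3a11 rose with Nr1i2 (r = 0.48, rho = 0.46, adjusted p = 3e-05 for both), at 0.55 in HFD and 0.40 in control livers. Cyp2e1 rose with the pericentral gene Glul (r = 0.32, rho = 0.30, adjusted p = 0.00016 and 0.00044) and Cyp2c29 with Cyp2c37 (r = 0.62, rho = 0.59, adjusted p = 3e-05). Without the 2 farthest livers these were 0.43, 0.35 and 0.62. Cyp2a5 and Dbp had r = 0.16 and rho = 0.18 (adjusted p = 0.0589 and 0.0344), so that only the rank value passed, and Cyp2f2 and the periportal gene Hal had r = 0.09 and rho = 0.11 (adjusted p = 0.301 and 0.201).

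Among 7311 genes compared, those most like Cyp3a11 across livers were Hadh (r = 0.56), an enzyme of fatty acid oxidation, the PPARA target Cyp4a14 (r = 0.49) and Cyp2c38 (r = 0.49). Those most like Cyp1a2 were Cyp2e1 (r = 0.49), Gulo (r = 0.44) and the retinol carrier Rbp4 (r = 0.43). Those most like Cyp2a5 were Cyp2a12 (r = 0.50), the bile acid reductase Akr1d1 (r = 0.39) and Hpd of tyrosine breakdown (r = 0.38). These are ranked descriptions without a test.

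In muscle 6 members were tested and none passed, where 1.43% of 13462 genes did (0.877% as higher and 0.55% as lower, limma), and 2 had an unadjusted p under 0.05, against 12.4% of all genes. Of all genes that passed 61.5% were higher, against 89.5% with libraries scaled to the sum of coding genes, and with TPM as deposited the median of all genes was -0.155. Cyp2e1 ran from 1.22 to 345 scaled TPM in HFD muscles, with a median of 17.7, and from 1.18 to 152 in control muscles, with a median of 30.4. Its log2 fold change was -0.59 ± 0.21 (adjusted p = 0.179). Cyp2u1, at medians of 6.53 on HFD and 7.20 on the control diet, had -0.10 ± 0.05 (adjusted p = 0.401). Cyp2d22 had -0.13 ± 0.07, Cyp2f2 -0.19 ± 0.16, Cyp2j9 -0.09 ± 0.06 and Cyp2j6 -0.04 ± 0.07, all with medians under 5 scaled TPM.

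The tested muscle members were compared with 2 markers of other tissues from muscle to muscle, in 12 relations that were not among the planned ones. Each member had at least 1 relation that passed for r, and other relations did not pass. Cyp2e1 followed the adipocyte gene Adipoq (r = 0.68, rho = 0.61, adjusted p = 4e-05 for both, 12 relations) and the hepatocyte gene Alb (r = 0.48, rho = 0.43, adjusted p = 4e-05), and without the 2 farthest muscles r was 0.68 and 0.40. Cyp2f2 followed Alb (r = 0.75, rho = 0.50, adjusted p = 4e-05) and without the 2 farthest muscles had r = 0.69. Cyp2f2 and Adipoq had r = 0.11 (adjusted p = 0.194), Cyp2u1 and Adipoq r = -0.018 (adjusted p = 0.828), Cyp2d22 and Adipoq r = 0.14 (adjusted p = 0.122), and Cyp2j9 and Alb r = 0.08 (adjusted p = 0.387). The other 5 relations were of Cyp2j6 with both markers, Cyp2j9 with Adipoq, and Cyp2u1 and Cyp2d22 with Alb. They had r from 0.19 to 0.31 and passed for r (adjusted permutation p from 0.00051 to 0.0314). For rho, Cyp2u1 and Cyp2d22 with Alb did not pass (adjusted p = 0.149 and 0.0641), and the rest of the 5 did. Adipocyte markers summed to a median of 730 scaled TPM in HFD muscles (165 to 3905) and 627 in control muscles (152 to 5769), and none of the 6 passed by diet. Hepatocyte markers summed to a median of 5.05 on HFD (0.218 to 5513) and 5.92 on the control diet (0.185 to 1692). Alb reached 100 scaled TPM in 14 muscles other than that of mouse 80. The part of fat or liver RNA in the muscle values was not tested.

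**Figure D5:**
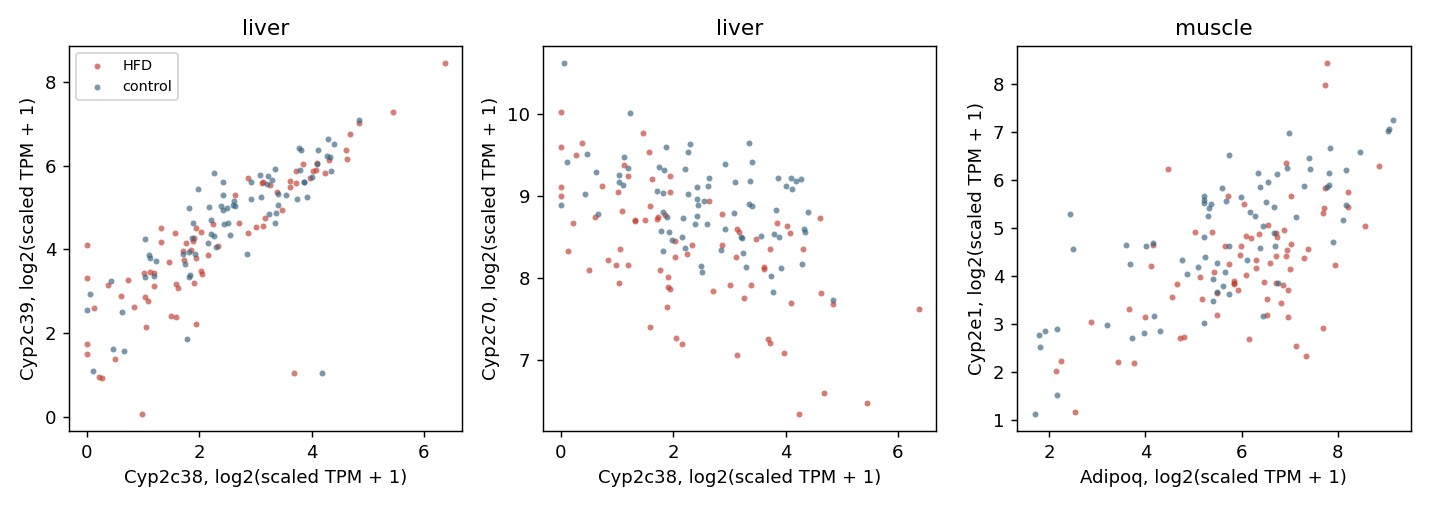
Scatter plots of log2(scaled TPM + 1), 1 point per mouse, HFD in red and control in blue: Cyp2c38 against Cyp2c39 in liver (r = 0.81), Cyp2c38 against Cyp2c70 in liver (r = -0.54), and Adipoq against Cyp2e1 in muscle (r = 0.68). Both diets lie along the same trends, and 2 livers in the left panel hold little Cyp2c39 at a Cyp2c38 level above 10 scaled TPM.

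Whether the diet effect differed between liver and muscle was tested as an interaction over 10899 genes tested in both, of which 3.20% passed, 1.39% with a difference above 0 and 1.82% below 0. Cyp2e1 did, with a liver change of 0.37 and a muscle change of -0.59, a difference of 0.96 ± 0.23 (adjusted p = 0.00322, limma). Without the 14 muscles holding Alb it was 1.08 (adjusted p = 0.000184), and with mouse 80, whose libraries go against their labels, 0.75 (adjusted p = 0.127). The other 5 members did not pass, with differences from -0.11 to 0.28.

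In adipose tissue Cyp2j9, of a subfamily that makes epoxides of arachidonic acid, was the only member tested. It ran from 2.35 to 15.7 scaled TPM in HFD adipose samples, with a median of 6.88, and from 2.81 to 14.2 in control samples, with a median of 8.87. The log2 fold change was -0.25 ± 0.07 (adjusted p = 0.00224, limma), in a table where 44.4% of 2223 genes passed, 22.9% as higher and 21.5% as lower. With TPM as deposited it was -0.05 (adjusted p = 0.812), and all genes then had a median of 0.20, with 94.7% of those that passed higher (51.5% in the reported fit). Cyp2a5 and Cyp2c29 had medians of 0 in both diets. In liver Cyp2j9 had medians of 3.40 on HFD and 3.98 on the control diet (-0.11 ± 0.08, adjusted p = 0.510).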

How the data were processed

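RNA from liver, muscle and abdominal adipose tissue was sequenced as stranded total RNA, per the labels' protocols. FastQC, Trim Galore 0.4.4 and Bowtie 1.2.2 are named in the submitters' processing notes. Which program gave the values, on which build and annotation, is not given in the sources used here. All values that the authors deposited are TPM, so the count test planned for count tables was replaced by limma. The liver and muscle tables hold 47643 genes, and 2728 complete genes of the adipose file were used, without its 1 incomplete line. TPM keep no depth, so the depth per library is unknown and no counting intervals are given.

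Symbols and types came from GENCODE M21, which matched 99.1% of liver and muscle IDs and 99.9% of adipose IDs. Each library was scaled by the mean log ratio to the profile of gene medians, after trimming 0.3 of the ratios and 0.05 of the levels at each end, over protein-coding nuclear genes with Lars2 left out. Genes reaching 1 scaled TPM in at least 0.7 of the smaller group's number of libraries were fitted as log2(scaled TPM + 1) with limma 3.58.1 (R 4.3.3, trend and robust settings), with Benjamini-Hochberg adjustment over all genes and a threshold of 0.05. The spread test used absolute deviations from the diet median of genes averaging 5 scaled TPM or more. Relations used residuals from diet means and 100000 permutations within diet. The fits were tested on simulated data. Other tools were Python 3.11.15, NumPy 2.4.6, pandas 2.3.3, SciPy 1.17.1 and Matplotlib 3.10.9.

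Groups came from the labels, and each library is 1 mouse. Mouse numbers pair liver and muscle of the same animal. Deviations from the group means over 10899 genes correlated at a median of 0.254 for the same number and -0.00146 for other numbers, and 130 of 148 pairs were over 0.1. Over the 150 genes whose liver and muscle deviations correlated most by number, 11 of 149 mice did not match best by number in both directions. These genes were picked on the same mice and numbers, so the matches are partly built in and are no independent check of the pairing. Text names the members past the threshold, the 2 most abundant of each subfamily, the members tested in muscle or adipose, the 5 most variable, and up to 4 genes of each other list by smallest p. Pericentral markers and some periportal markers that did not pass are named too. The members and lists were chosen with earlier results of these data known. Alternatives changed the scaling, the pseudocount (0.1 or 5), the filter and the libraries kept.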

Additional observations from a re-analysis of the deposited data

Results flagged for a closer look

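The diet effect on Cyp2e1 differed between liver and muscle by a direct test. The log2 fold change was 0.37 in liver and -0.59 in muscle, a difference of 0.96 (adjusted p = 0.00322, limma), and only the liver change passed alone. In muscle, Cyp2e1 followed the adipocyte gene Adipoq from mouse to mouse (r = 0.68), and Adipoq had medians of 77.7 scaled TPM on HFD and 51.3 on the control diet. The part of fat RNA in this difference was not tested.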

How the results depend on the processing

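With TPM as deposited, 0 members passed in liver, 0 in adipose tissue and 0 in the liver-muscle difference. Of all genes tested, 0.479% then passed in liver (9.89% in the reported fit), 0.111% in muscle (1.43%), 13.6% in adipose tissue (44.4%), 0.0640% for the difference (3.20%) and 0.0142% for spread (0.0273%). Without libraries of low scale factor 15.5% passed in liver and 5.50% for the difference, and with mouse 80 the difference held 0 members. In muscle 2.23% passed with libraries scaled to the sum of coding genes, 0.301% with no filter and 0.945% without the libraries holding Alb, an alternative chosen after seeing the data, as were those without mouse 83 and the use of ranks. For spread 0.0127% passed with the sum scaling, 0.0137% with a pseudocount of 0.1 and 0.0547% without the mice not matched between tissues.

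Signs turned only for values that did not pass. In liver Cyp2c23 had -0.0385 with the sum scaling, -0.0171 with a pseudocount of 0.1 and -0.0450 with mouse 80, Cyp2c54 had -0.0152 with the sum scaling and -0.0261 with mouse 80, and Cyp3a25 had 0.0078 without low-scale libraries. In muscle Cyp2j6 had 0.0041 with mouse 80. As deposited, the spread differences were 0.00035 for Cyp2d9 and 0.011 for Cyp2j5. For the liver-muscle difference Cyp2d22 had -0.049 with mouse 80, Cyp2f2 had -0.042 with a pseudocount of 5 and -0.099 with mouse 80, and Cyp2j9 had 0.035 as deposited, 0.0070 with a pseudocount of 0.1 and 0.017 without the Alb libraries. Cyp2f2 and Hal had r = -0.012 in HFD livers alone. Over the alternatives the planned relations in liver varied widely in size. For Cyp2f2 with Hal, r ran from -0.012 to 0.936, for Cyp2e1 with Glul from 0.247 to 0.946, and for Cyp3a11 with Nr1i2 from 0.395 to 0.820. For Cyp2c29 with Cyp2c37 it ran from 0.590 to 0.818, for Cyp2a5 with Dbp from 0.123 to 0.449, and for Cyp2a5 with Cyp2a4 from 0.222 to 0.416. The cause of these changes was not tested.

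With mouse as the replicate block, the Cyp2e1 difference was 0.96 (adjusted p = 0.00294), and the block changed no member's call. Of the values of single liver members under the alternatives, 348 kept direction and side of the threshold, 10 lost the call, 5 gained it and 6 turned sign. Alternatives in which a member was under the expression minimum gave no value and are not counted as lost calls. Cyp2b9, a called member, thus had values in 7 alternatives, against 11 for Cyp2e1. Within HFD livers Cyp2e1 and Glul missed the threshold (r = 0.25, adjusted p = 0.0524), as did Cyp2a5 and Cyp2a4 within control livers (r = 0.22, adjusted p = 0.0872).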

Other observations

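The liver of mouse 83 (HFD) held the highest value of 7 of the 44 members that reached 1 scaled TPM in any liver. These were Cyp2b9 (504 scaled TPM, next highest liver 73.9), Cyp2b13 (83.2, next 3.49), Cyp2c39 (346, next 154), Cyp2c38 (81.5, next 42.7), Cyp2c37 (163, next 99.4), Cyp2a22 and Cyp2d26. The same liver held the lowest Cyp2d9 of all livers, at 215 scaled TPM, and the next to lowest Cyp2u1, at 5.99. Its library is 1 of the 11 liver libraries whose label carries a second number. Another HFD liver held the highest Cyp2a4 (645 scaled TPM), Cyp2a5 (403), Cyp2a12 and Cyp2c29. A further HFD liver held the highest values of both Cyp1a genes, with 1188 scaled TPM of Cyp1a2 (next 605) and 9.00 of Cyp1a1 (next 2.22).

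Among the 65 livers with at least 5 scaled TPM of Cyp2c38, the ratio of Cyp2c39 to Cyp2c38 had a median of 4.06 and reached 8.20. The ratio was 0.0905 in the liver of mouse 88 (HFD) and 0.0610 in that of mouse 46 (control), and the next lowest was 2.22, in mouse 5 (control). These livers were singled out after their values were seen.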
